A study of Mus musculus with 7 samples.

Results

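The genes described here encode the enzymes and proteins that handle peroxides and thiols in mouse testis: glutathione S-transferases (Gst), glutathione peroxidases (Gpx), peroxiredoxins (Prdx), thioredoxins with their reductases and relatives (Txn), superoxide dismutases (Sod) and catalase (Cat). They were chosen by gene symbol, as the protein-coding genes of the deposited table whose symbol begins with one of these names. The rule used no difference between the genotypes, but genes that the table does not list, such as Gsta1 and Gstp2, could not enter. The rule found 53 of the 19719 genes listed, of which 14938 are protein-coding. 1 further symbol match, Gstm2-ps1, is not annotated as protein-coding and was left out.

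Glutathione is the main small thiol of the cell, and glutathione S-transferases join it to reactive compounds while glutathione peroxidases use it to reduce peroxides. Peroxiredoxins reduce peroxides with a reactive cysteine, which thioredoxin restores in most of them, though not in Prdx6. Thioredoxin in turn is reduced by thioredoxin reductases, which are selenoproteins. In testis these systems are also used to build sperm, since forming spermatids pack their chromatin and their tail structures with disulfide bonds.

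RNA of total testis was sequenced from 8-week-old C57BL/6 males of 2 genotypes. The control group of 3 males, labelled WT, carried the floxed Rlim allele without deletion (fl/Y), and the group of 4 males labelled Rlim-KO carried the floxed allele deleted by a Sox2-Cre transgene (cKO/Y). Rlim encodes an X-linked ubiquitin ligase, and Sox2-Cre acts in the early embryo, so that somatic cells of the testis and germ cells both lose the gene and an effect cannot be assigned to either. The labels also place every library in 1 of 2 batches: fl/Y 1 and 2 and cKO/Y 1 and 2 were in batch 2, and fl/Y 3 and cKO/Y 3 and 4 were in batch 1. No source used here says what the batches were. The males were littermates by the methods of the study, and libraries are taken as 1 male each, which the labels do not state. P-values thus rest on the spread between these libraries, which the fit combines with that of other genes at a similar level.

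Values are CPM, that is reads of a gene scaled to a common library size, and the libraries held 2822168 to 8633399 assigned reads, so that 3 reads correspond to 0.301 to 0.945 CPM. Mitochondrial genes took 12.7% to 21.4% of the signal in batch 2 and 5.88% to 9.31% in batch 1. fl/Y 1 and cKO/Y 2 lay at one end of the first principal component of all tested genes, and cKO/Y 3 at the other. The part of these differences in the results was not tested. Rlim itself was at 99.5, 70.7 and 61.5 CPM in fl/Y and at 32.6, 35.7, 21.7 and 20.7 CPM in cKO/Y. The genotypes did not overlap, and the difference of -1.38 on the log2 scale (SE 0.16) passed the test with an adjusted p of 0.0087. This call was lost without fl/Y 1 (adjusted p 0.154) and without fl/Y 3 (adjusted p 0.634), while the difference stayed between -1.52 and -1.28 with any 1 library left out.

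Loss of Rlim left the RNA levels of these genes, 52 of which could be tested, without a change that passed the test in testis. Of 52 genes tested, 0 rose and 0 fell in cKO/Y at an adjusted p under 0.05 with limma, against 0% of all 19400 tested genes that rose and 0.00515% that fell (1 gene, Rlim). edgeR's quasi-likelihood test, its likelihood ratio test and DESeq2 also called 0 of these genes. At an unadjusted p under 0.05, 1 gene was higher (Txnip, 1.22% of all genes were called in this direction) and 1 was lower (Gsta3, 1.37% of all genes). The same pair were the genes whose genotypes did not overlap, against 1.34% of all genes higher and 1.59% lower in every cKO/Y library. These shares are close to the background of all genes. The estimates were above 0 for 23 genes and below 0 for 29, with a median of -0.014 on the log2 scale, beside -0.0055 over all genes tested. In bulk tissue, fewer cells of a type and less RNA per cell cannot be told apart, which holds for every level given here.

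For 49 of the 52 genes (94.2%) the 95% interval of the genotype difference lay within a 2-fold change in either direction, which held for 77% of all genes. The exceptions were Gpx8 (-1.16 to 0.66), Gstt1 (-0.37 to 1.13) and Txn2 (-0.28 to 1.08), on the log2 scale. Gpx8 and Gstt1 were under 4 CPM in every library, and Txn2 varied from 8.68 to 36.0 CPM between libraries. Gpx7 was the 1 gene not tested, at 0.20 to 1.86 CPM and therefore under the filter of more than 1 CPM in at least 3 libraries.

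**Figure D1:**
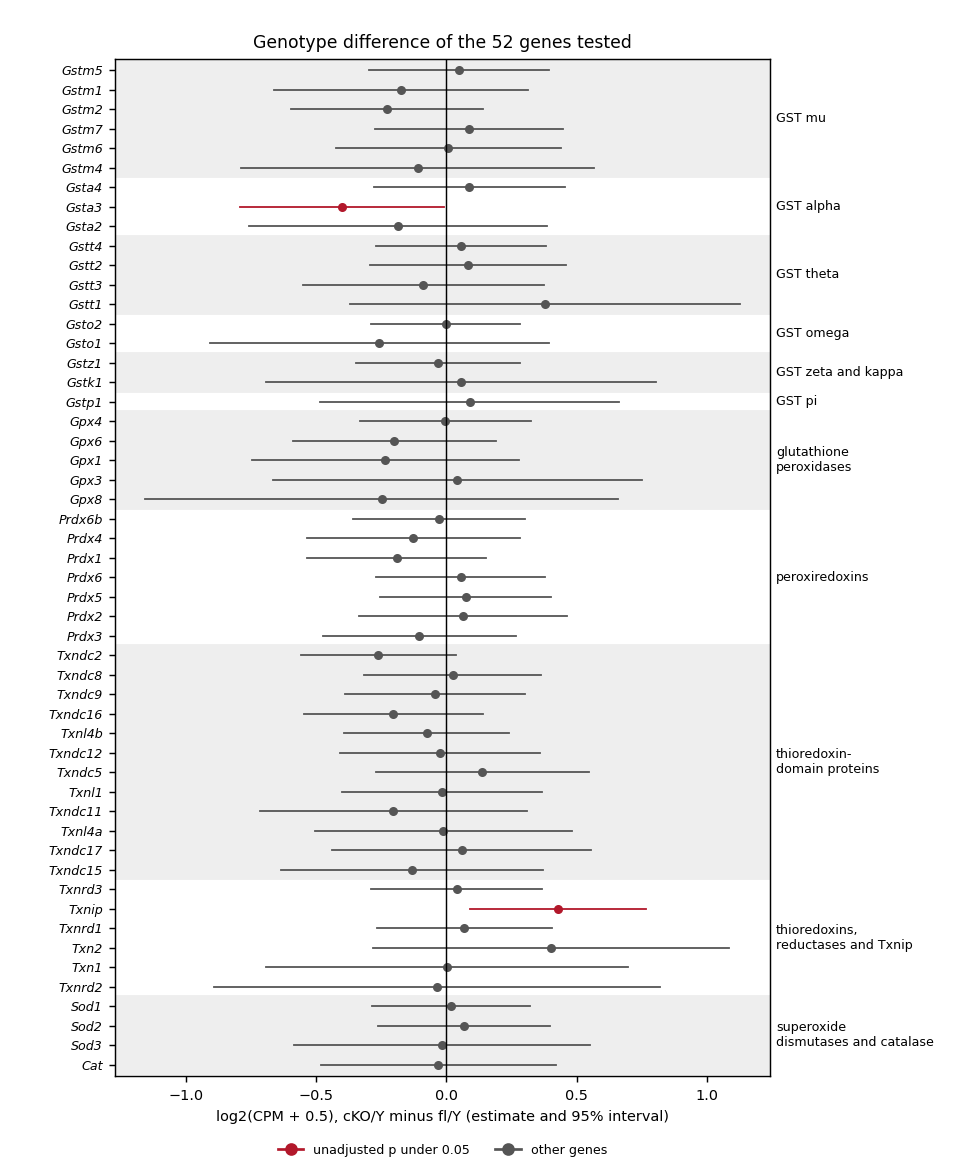
Genotype difference of the 52 tested genes, as cKO/Y minus fl/Y on the scale of log2(CPM + 0.5). Points are estimates with batch as a covariate, lines are 95% intervals, and red marks the genes at an unadjusted p under 0.05. All but 2 intervals cross 0, with Txnip at 0.43 and Gsta3 at -0.40.

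Txnip, which binds and inhibits thioredoxin and also restrains glucose uptake, was at 55.4, 52.5 and 50.7 CPM in fl/Y. In cKO/Y it was at 87.8, 64.4, 72.4 and 58.4 CPM. All 4 cKO/Y libraries were thus above the highest fl/Y library, and the spread was much wider in cKO/Y (SD 12.7 against 2.39 CPM). The difference was 0.43 on the log2 scale (SE 0.16, 95% interval 0.09 to 0.77, unadjusted p = 0.016, adjusted p = 1.00 in limma), and it was 0.48 within batch 2 and 0.36 within batch 1. Without cKO/Y 1, the highest library, the difference was 0.31 (unadjusted p = 0.061), and without fl/Y 3 it was 0.48 (unadjusted p = 0.0503). Exons of the gene Gm15441 cover 19.4% of the Txnip exons on the opposite strand. Gm15441 itself was at 0.93 to 3.78 CPM, with cKO/Y 1 the lowest library, and the sources used here do not say whether reads were counted by strand.

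Gsta3, an alpha-class transferase, was at 24.9, 20.6 and 19.6 CPM in fl/Y. In cKO/Y it was at 15.2, 16.1, 18.6 and 15.2 CPM. Each cKO/Y library was below the lowest fl/Y library, by a small margin for cKO/Y 3. The difference was -0.40 on the log2 scale (SE 0.18, 95% interval -0.79 to -0.01, unadjusted p = 0.046, adjusted p = 1.00 in limma), with -0.52 within batch 2 and -0.22 within batch 1. The unadjusted p rose above 0.05 when any 1 of 6 libraries was left out, up to 0.184 without fl/Y 1. cKO/Y 3 was the exception, with 0.033 without it.

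The 250 bases before the annotated start of Gsta3 (RefSeq, GRCm38.p6, chr1:21240335-21240584, plus strand) are shown because Gsta3 was the lower of this pair and its window holds the letters of a known redox-responsive element. Capitals mark TGACNNNGC, the core of the antioxidant response element bound by NRF2, which lies upstream of the start.
Gsta3: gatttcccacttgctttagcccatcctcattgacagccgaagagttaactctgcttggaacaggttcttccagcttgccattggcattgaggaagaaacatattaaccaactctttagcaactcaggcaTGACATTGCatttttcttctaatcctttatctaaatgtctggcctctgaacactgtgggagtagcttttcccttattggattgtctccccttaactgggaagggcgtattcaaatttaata
The same 9 letters, on either strand, were found in this window for 9 of the 46 genes with a RefSeq entry (Gsta3, Gstm5, Gstm7, Prdx1, Sod1, Txndc2, Txndc5, Txndc11 and Txnrd1) and in 11.5% of 27025 genes. The palindrome TGACGTCA, the cyclic AMP response element, was found for 1 of the 46 (Txnl4b) and in 1.77% of genes. The E-box CACGTG was found for 3 (Gpx6, Prdx4 and Txndc9) and in 6.86% of genes. Of the 9 genes with the first motif, only Gsta3 was at an unadjusted p under 0.05 in the genotype comparison.

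Levels of different genes were compared as CPM per kilobase of annotated exon. Per kilobase, 7 of the 53 genes exceeded 100, 16 lay between 10 and 100, and 30 were below 10, and their median was 7.17, beside 3.49 for protein-coding genes. The 7 highest were Gstm5 (849), Gpx4 (307), Txndc2 (274), Gstt4 (171), Txnrd3 (141), Txndc8 (126) and Prdx6b (102), and Gstm5 ranked 11 among 14923 protein-coding genes with a length. The remaining genes fell over a wide range, down to 0.380 for Txnrd2. Summed over the 53 genes, the fl/Y signal was 4571 ± 113 CPM (SD, n = 3). The cKO/Y signal was 4537 ± 246 CPM (SD, n = 4), which differed by less than either spread. The genes of thioredoxin-domain proteins alone summed to 959 ± 15.9 CPM in fl/Y and 862 ± 52.4 CPM in cKO/Y (SD). The thioredoxins, reductases and Txnip went the other way, at 494 ± 43.6 and 543 ± 44.6 CPM. These sums differed by more than both spreads, those of the other families did not, and no family sum was tested.

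**Figure D2:**
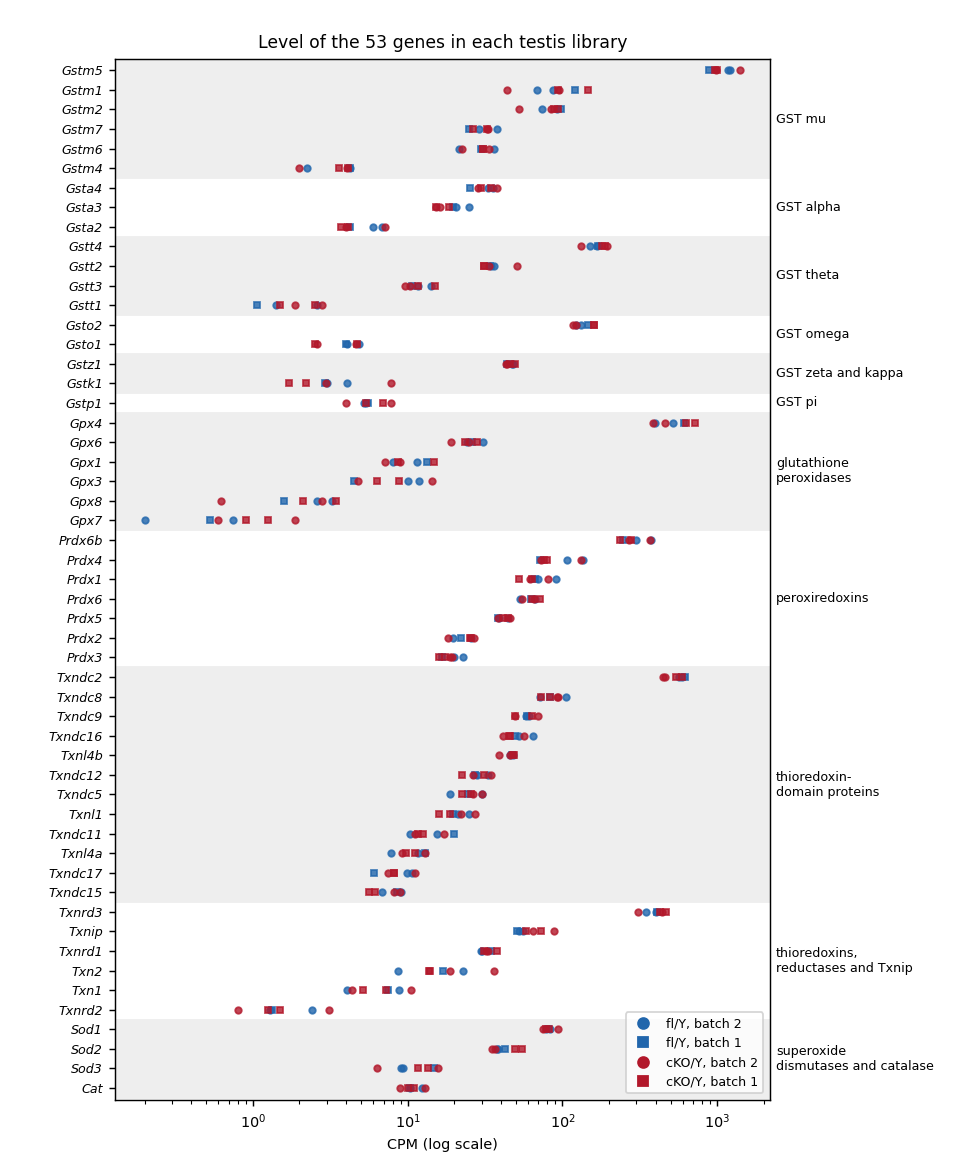
CPM of the 53 genes in each of the 7 libraries, on a log axis, grouped by family and ordered by mean CPM within each. Blue points are fl/Y, red points are cKO/Y, circles are batch 2 and squares are batch 1. The libraries of both genotypes lie together for nearly every gene, and the levels run from a mean of 0.871 CPM (Gpx7) to one of 1085 CPM (Gstm5).

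The mu-class transferases lie side by side on chromosome 3, from Gstm5 (chr3:107895821-107898686, GRCm38) to Gstm4 (chr3:108040408-108044894), and 6 members were listed. Gstm5, known as the mu-class transferase of testis and brain, was at 1203, 1168 and 884 CPM in fl/Y and at 981, 1398, 963 and 1001 CPM in cKO/Y. The genotypes overlapped, with the highest and the lowest library in different genotypes, and the difference was 0.05 on the log2 scale (SE 0.16). Per kilobase Gstm5 made up 79.7% to 92.1% of the mu-class signal of a library. Gstm1, which conjugates many electrophiles in liver, was at 68.6, 87.4 and 120.1 CPM in fl/Y and at 94.3, 44.1, 145 and 93.6 CPM in cKO/Y. Gstm2 was at 74.0, 92.7 and 97.3 CPM in fl/Y and at 84.1, 52.6, 93.5 and 88.6 CPM in cKO/Y. cKO/Y 2 was the lowest library for both genes and the highest for Gstm5. The per-kilobase ratio of Gstm5 to Gstm1 was accordingly 36.6 in cKO/Y 2 and 20.2 in fl/Y 1, against 7.65 to 15.4 in the other libraries. Of the 35-base words of Gstm1, as long as the reads, 26.3% also occur in other genes, mostly Gstm2-ps1 and Gstm3, so its value is less certain. In the 6 mu-class genes the genotype differences ran from -0.23 (Gstm2) to 0.09 (Gstm7).

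Among the alpha-class transferases, Gsta4, which conjugates the lipid peroxidation product 4-hydroxynonenal, was at 35.5, 33.1 and 25.5 CPM in fl/Y and at 37.5, 28.5, 34.3 and 29.8 CPM in cKO/Y. Gsta2 was at 5.95, 6.87 and 4.24 CPM in fl/Y and at 7.13, 3.99, 4.09 and 3.71 CPM in cKO/Y. Both overlapped between genotypes, with differences of 0.09 (SE 0.17) and -0.18 (SE 0.27) on the log2 scale. For Gsta2, 58.3% of its 35-base words occur in other genes, led by Gsta1 and Gm10639, which makes its value uncertain.

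Among the theta-class transferases, a cluster on chromosome 10, Gstt4 was at 167, 151 and 168 CPM in fl/Y and at 132, 194, 188 and 180.1 CPM in cKO/Y. Gstt2 was at 36.2, 34.5 and 34.2 CPM in fl/Y and at 50.9, 33.7, 31.2 and 31.2 CPM in cKO/Y. Gstt3 was at 11.7, 14.1 and 10.6 CPM in fl/Y and at 9.62, 10.4, 11.7 and 15.1 CPM in cKO/Y. The genotypes overlapped for each of these, and the lowest and highest Gstt4 library were both cKO/Y. Per kilobase Gstt4 held 89.4% to 94.0% of the theta-class signal, and the 4 differences ran from -0.09 (Gstt3) to 0.38 (Gstt1).

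The omega-class transferases Gsto1 and Gsto2 are neighbours on chromosome 19. Gsto2, which reduces dehydroascorbate, was at 132, 122 and 146 CPM in fl/Y and at 122, 117, 161 and 159 CPM in cKO/Y. Gsto1 was at 4.09, 4.85 and 3.98 CPM in fl/Y and at 4.65, 2.59, 2.52 and 4.72 CPM in cKO/Y. Gsto2 thus stood far above its neighbour, at 21.7 to 54.9 times the level per kilobase. The highest ratio was that of cKO/Y 3, where Gsto1 was at 2.52 CPM and 3 reads correspond to 0.945 CPM, so it rests on few reads. The differences were -0.0023 (SE 0.13) for Gsto2 and -0.26 (SE 0.31) for Gsto1.

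Of the remaining transferases, Gstz1, which acts in tyrosine breakdown, was the steadiest. It was at 48.1, 47.3 and 43.8 CPM in fl/Y and at 43.7, 43.3, 46.0 and 49.4 CPM in cKO/Y, with a difference of -0.03 (SE 0.15). Gstk1, of mitochondria and peroxisomes, was at 4.09, 3.03 and 2.92 CPM in fl/Y and at 7.75, 2.99, 2.20 and 1.71 CPM in cKO/Y. cKO/Y held both its highest and its lowest library. Gstp1 was at 5.39, 5.25 and 5.57 CPM in fl/Y and at 7.75, 3.99, 6.93 and 5.42 CPM in cKO/Y, and Gstp2 contains 37.5% of the 35-base words of Gstp1.

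Of the glutathione peroxidases, Gpx4 reduces peroxidised phospholipids and is known as the selenoprotein that hardens into the sheath of the sperm midpiece. It was at 397, 515 and 607 CPM in fl/Y and at 462, 383, 713 and 632 CPM in cKO/Y. The genotypes overlapped, the 3 highest libraries were those of batch 1, and the genotype difference was -0.0042 (SE 0.15). Gpx6 was at 24.4, 30.7 and 26.0 CPM in fl/Y and at 18.9, 24.9, 23.6 and 28.2 CPM in cKO/Y. Gpx1, the general cytosolic enzyme, was at 7.99, 11.5 and 13.3 CPM in fl/Y and at 8.99, 7.18, 14.8 and 8.63 CPM in cKO/Y. Neither differed beyond its spread, at -0.20 (SE 0.18) and -0.23 (SE 0.24). Per kilobase Gpx4 held 87.5% to 91.9% of the peroxidase signal. The related Gpx4-ps2 shares 37.9% of the 35-base words of Gpx4, so reads of the copy cannot be fully told apart.

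The peroxidases differ at the codon of their active site, and the 30 bases around it in the GENCODE transcripts (GRCm38) show which of the measured genes are selenoproteins. Capitals mark the codon, where TGA is read as selenocysteine and TGT or TGC as cysteine.
Gpx4: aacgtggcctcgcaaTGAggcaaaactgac
Gpx1: aatgtcgcgtctctcTGAggcaccacgatc
Gpx3: aacgtagccagctacTGAggtctgacagac
Gpx6: aacgtggcatccttcTGTggcctgacagct
Gpx7: aacgtagctagcgaaTGTggcttcacagac
Gpx8: aacgtggctagtgacTGCcgcttcacagac
The codon of Gpx4 lies in exon 3 (chr10:80054737-80054739, plus strand) and is number 129 of 253 in its longest coding sequence. Gpx1 has it in exon 1 (chr9:108339451-108339453), Gpx3 in exon 2 (chr11:54907256-54907258) and Gpx6 in exon 2 (chr13:21313777-21313779). The selenocysteine forms were the highest member per kilobase (Gpx4, 307) and intermediate ones (Gpx1, 7.17 and Gpx3, 4.78), and the cysteine forms were at 18.5 (Gpx6), 2.24 (Gpx8) and 0.676 (Gpx7). Both forms overlapped between the genotypes wherever they were tested.

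Of the peroxiredoxins, Prdx6b, a copy of Prdx6 on another chromosome (chr2:80292472-80295356), led per kilobase with 40.9% to 50.5% of the family's signal. It was at 299, 370.3 and 246 CPM in fl/Y and at 270, 368, 234 and 276 CPM in cKO/Y, a difference of -0.03 (SE 0.16). Its level per kilobase was 6.10 to 11.7 times that of Prdx6. Prdx4, the X-linked peroxiredoxin of the secretory pathway, was at 135, 107 and 71.6 CPM in fl/Y and at 72.9, 133, 76.5 and 79.1 CPM in cKO/Y. Prdx1 was at 90.9, 69.7 and 66.6 CPM in fl/Y and at 61.4, 80.3, 52.3 and 63.5 CPM in cKO/Y. fl/Y 1 and cKO/Y 2 were the highest pair for both genes, 1 of each genotype. The 7 differences ran from -0.19 (Prdx1) to 0.07 (Prdx5), 3 above 0 and 4 below.

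Of the 12 genes of thioredoxin-domain proteins, Txndc2 and Txndc8 encode the thioredoxins known from spermatids, and Txndc8 lies beside Txn1 on chromosome 4. Txndc2 was at 595, 567 and 614 CPM in fl/Y and at 448, 458, 593 and 543 CPM in cKO/Y. Its fl/Y libraries were tight and 3 of 4 cKO/Y libraries lay below them, while cKO/Y 3 was within their range. The difference was -0.26 (SE 0.14, 95% interval -0.56 to 0.04, unadjusted p = 0.081), with -0.36 within batch 2 and -0.11 within batch 1, and it did not pass the test. Txndc8 was at 71.2, 106 and 82.5 CPM in fl/Y and at 92.7, 93.1, 83.1 and 72.9 CPM in cKO/Y, a difference of 0.02 (SE 0.16). Txndc9, a cofactor of the cytosolic chaperonin, was at 61.2, 58.0 and 58.9 CPM in fl/Y and at 49.6, 69.2, 49.4 and 63.2 CPM in cKO/Y. These values overlapped, as did those of the other members of this group. The other 9 genes, which include enzymes of the endoplasmic reticulum (Txndc5, Txndc11, Txndc12, Txndc16) and splicing proteins (Txnl4a, Txnl4b), had differences from -0.20 to 0.14. 3 of the 12 estimates were above 0 and 9 below.

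Txn1, the cytosolic thioredoxin, was at 4.04 to 8.74 CPM in fl/Y and at 4.39 to 10.5 CPM in cKO/Y. Txn2, the mitochondrial form, was at 22.7, 8.68 and 17.0 CPM in fl/Y and at 36.0, 18.7, 13.9 and 13.8 CPM in cKO/Y. Of their reductases, Txnrd3, the thioredoxin and glutathione reductase known for its high level in testis, was at 401, 346 and 408 CPM in fl/Y and at 309, 438, 426 and 465 CPM in cKO/Y. The genotypes overlapped, with cKO/Y 1 the lowest and cKO/Y 4 the highest library, and the difference was 0.04 (SE 0.15). Txnrd1, the cytosolic reductase, was at 29.9, 30.3 and 34.5 CPM in fl/Y and at 32.3, 33.3, 31.2 and 37.7 CPM in cKO/Y. Its difference was 0.07 (SE 0.16). Per kilobase the level of Txnrd3 was 23.9 to 34.1 times that of Txnrd1, with both extremes in cKO/Y.

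All 3 reductases carry selenocysteine next to their last residue, and the end of each coding sequence, up to its closing glycine codon, is shown to place these selenoproteins beside Gpx4. Capitals mark the TGA codon for selenocysteine, the last but one codon of each (GENCODE transcripts, GRCm38).
Txnrd3: actcagaaaggctgcTGAggc
Txnrd1: ctccagtctggctgcTGAggt
Txnrd2: actgtgactggttgcTGAggc
The codons lie at chr6:89674789-89674791 in exon 16, chr10:82896037-82896039 in exon 15 and chr16:18477772-18477774 in exon 17. Txnrd2, the mitochondrial reductase, was at 0.80 to 3.10 CPM, with both extremes in cKO/Y. Its difference was -0.04, with a 95% interval from -0.89 to 0.82.

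Of the enzymes that remove superoxide and hydrogen peroxide, Sod1 in the cytosol was at 83.5, 78.8 and 80.6 CPM in fl/Y and at 93.1, 74.5, 81.2 and 78.8 CPM in cKO/Y. Sod2 in mitochondria was at 37.5, 38.2 and 42.4 CPM in fl/Y and at 36.9, 34.9, 54.5 and 49.2 CPM in cKO/Y. Sod3, the secreted form, was at 9.11, 9.29 and 14.9 CPM in fl/Y and at 15.8, 6.38, 13.5 and 11.6 CPM in cKO/Y. All 3 overlapped between the genotypes, and their differences were 0.02 (SE 0.14), 0.07 (SE 0.15) and -0.02 (SE 0.27). Cat in peroxisomes was at 10.3 to 12.3 CPM in fl/Y and at 8.97 to 13.0 CPM in cKO/Y, a difference of -0.03 (SE 0.21).

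**Figure D3:**
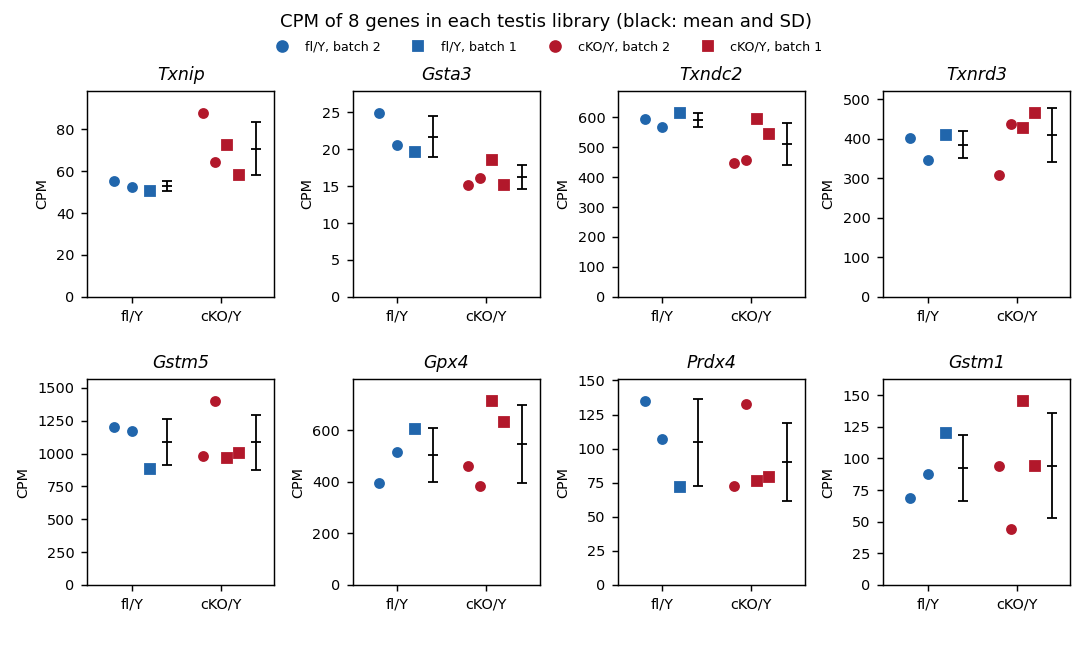
CPM of 8 genes in each library, with the axis from 0. Blue is fl/Y, red is cKO/Y, circles are batch 2, squares are batch 1, and black bars are mean and SD. Txnip and Gsta3 do not overlap between genotypes, at 50.7 to 55.4 against 58.4 to 87.8 CPM and 19.6 to 24.9 against 15.2 to 18.6 CPM, while the other 6 do, and the 3 highest Gpx4 values, from 607 CPM, are the squares.

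As in the whole table, more of these genes reached the thresholds between the labelled batches than between the genotypes. In the same fit, 1 of 52 genes was higher in batch 1 at an adjusted p under 0.05 and 0 were lower, against 3.6% and 3.46% of all genes. The gene was Gpx4, with 0.57 on the log2 scale (SE 0.15, adjusted p = 0.038). At an unadjusted p under 0.05, 4 genes were higher in batch 1 (Gpx4, Gstm1 at 0.76, Sod2 at 0.38 and Gsto2 at 0.33) and 3 were lower (Gstk1 at -0.78, Prdx4 at -0.50 and Prdx6b at -0.36), against 12.9% and 11.9% of all genes. These 7 genes are 13.5% of those tested, which is a smaller share than both shares of all genes together. Next by p stood Txnl1, a thioredoxin-like protein of the proteasome, with -0.38 (unadjusted p = 0.051). It was at 25.1, 21.2 and 19.6 CPM in fl/Y and at 22.0, 27.3, 16.1 and 18.9 CPM in cKO/Y, and all 3 libraries of batch 1 were below those of batch 2. The median batch difference was -0.032 over the genes described here and 0.018 over all genes.

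The call of Gpx4 rested on most of the libraries. Its adjusted p was 0.113 without fl/Y 1, 0.149 without fl/Y 3, 0.096 without cKO/Y 2, 0.178 without cKO/Y 3 and 0.106 without cKO/Y 4, and it was under 0.05 only without fl/Y 2 (0.024) and without cKO/Y 1 (0.017). The difference stayed between 0.48 and 0.67. Without cKO/Y 1, 7 genes passed (Gpx4, Gstm1, Gstm2 and Sod3 higher in batch 1, and Gstm5, Prdx4 and Prdx6b lower). Without cKO/Y 2 the single call was Gpx3, lower in batch 1. The share of all genes past the batch test was not counted in these fits, so these counts have no background beside them. Markers of elongating spermatids moved with the batch: their summed level over 14 of 14 listed genes was 16459 to 18255 CPM in batch 1 and 11282 to 13193 CPM in batch 2, with 10 of 14 higher in batch 1 and 6 past the adjusted threshold. Of the spermatocyte markers, 6 of 15 also passed and 9 were lower in batch 1, while their sums overlapped (5215 to 5545 CPM in batch 1, 5099 to 6119 CPM in batch 2). The round spermatid markers summed to 1587 to 1647 CPM in batch 1 and to 1328 to 1512 CPM in batch 2, with 0 past the threshold, and endothelial markers to 52.8 to 62.0 and 37.7 to 48.4 CPM, with 1 of 8 past it. Of the Leydig and the peritubular myoid markers, 1 of 10 and 1 of 9 also passed, with sums that overlapped between batches. Over all marker lists 15 of the 107 tested passed, against 3.6% of all genes higher and 3.46% lower in batch 1. The part of these markers, or of the mitochondrial share, in the difference of Gpx4 was not tested.

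**Figure D4:**
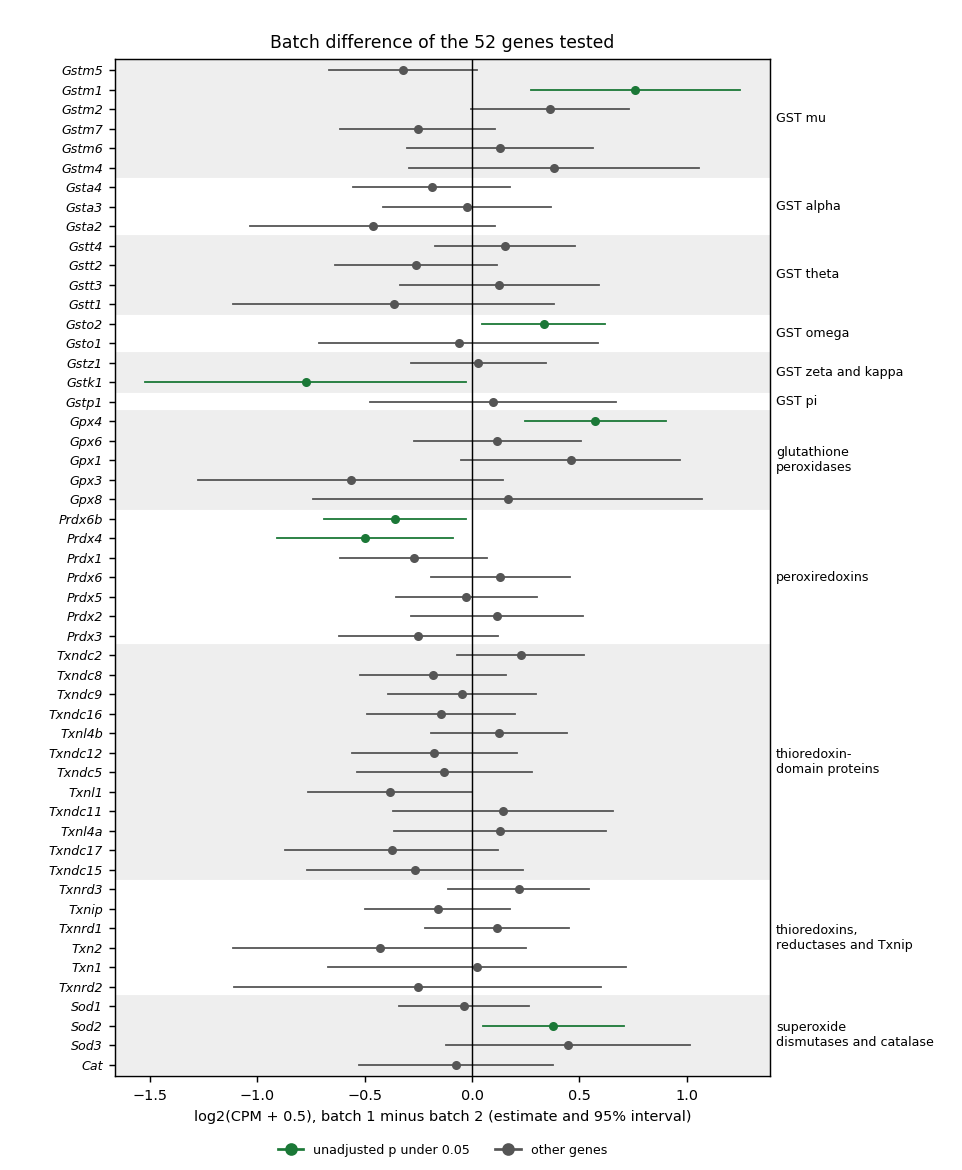
Batch difference of the 52 tested genes, as batch 1 minus batch 2 on the scale of log2(CPM + 0.5), from the same fit with genotype as a covariate. Points are estimates, lines are 95% intervals and green marks the 7 genes at an unadjusted p under 0.05. Gstm1 at 0.76 and Gpx4 at 0.57 lie farthest to the right and Gstk1 at -0.78 farthest to the left.

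The genotype effect did not differ detectably between batches. The interaction of genotype and batch passed an adjusted p of 0.05 for 0 of the 52 genes in limma, and 0 were at an unadjusted p under 0.05, against 2.08% of all genes. The estimates within the 2 batches had the same sign for 20 of 52 genes and opposite signs for the others. The same count was not made over all genes.

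Other genes of these pathways gave the same picture. Over 4 lists of glutathione synthesis and recycling, thioredoxin partners, selenoprotein synthesis and the NRF2 pathway, 101 genes were tested, and 0 rose or fell at an adjusted p under 0.05 in limma, in edgeR or in DESeq2. In limma 0 were at an unadjusted p under 0.05, against 1.22% of all genes higher and 1.37% lower, and 50 estimates were above 0 and 51 below. The median was -2.9e-05 on the log2 scale, and the medians of the single lists ran from -0.03 to 0.03. In glutathione synthesis and recycling (31 tested), the smallest p belonged to Gclm, the modifier subunit of the rate-limiting enzyme, and Glrx5, of iron and sulfur cluster assembly. Gclm was at 19.7, 17.2 and 14.1 CPM in fl/Y and at 24.8, 21.1, 15.7 and 17.1 CPM in cKO/Y, a difference of 0.27 (SE 0.18). Glrx5 was at 4.28, 4.24 and 8.75 CPM in fl/Y and at 3.41, 3.59, 6.61 and 5.12 CPM in cKO/Y, a difference of -0.37 (SE 0.25). Both overlapped between genotypes. Gstcd, of the same list, was the 1 of the 101 pathway genes that did not. It was at 36.6, 35.9 and 37.4 CPM in fl/Y and at 31.0, 32.9, 34.3 and 35.1 CPM in cKO/Y. Its difference was -0.15 (SE 0.15, unadjusted p = 0.333 in limma). Of all genes tested, 1.59% were lower and 1.34% higher in every cKO/Y library, so 1 of 101 is no more than the background.

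Among 28 thioredoxin partners, Ero1lb, an oxidase that forms disulfides in the endoplasmic reticulum, was at 88.1, 90.3 and 88.1 CPM in fl/Y and at 115, 177, 85.0 and 85.6 CPM in cKO/Y. The 2 cKO/Y libraries of batch 2 lay above every fl/Y library and those of batch 1 below, with 0.68 within batch 2 and -0.05 within batch 1 (pooled 0.39, SE 0.18, unadjusted p = 0.051). Nnt, a mitochondrial source of reducing power for both systems, was at 4.28, 2.83 and 2.65 CPM in fl/Y and at 4.96, 5.18, 2.52 and 4.12 CPM in cKO/Y, which overlap. Of 12 genes of selenoprotein synthesis, Selenop, the selenium carrier, was at 111, 92.3 and 71.6 CPM in fl/Y and at 75.4, 93.7, 67.1 and 59.6 CPM in cKO/Y. Secisbp2, which recodes TGA, was at 34.2, 34.3 and 34.5 CPM in fl/Y and at 26.7, 24.9, 35.9 and 40.8 CPM in cKO/Y. Neither gene separated the genotypes. Of 30 genes of the NRF2 pathway, the smallest p belonged to Abcc4 and Cbr1. Abcc4, an exporter of organic anions, was at 3.53, 4.85 and 4.77 CPM in fl/Y and at 3.72, 2.19, 2.52 and 3.51 CPM in cKO/Y. Cbr1, a carbonyl reductase, was at 6.32, 5.25 and 5.30 CPM in fl/Y and at 3.10, 3.59, 5.98 and 4.92 CPM in cKO/Y. Both overlapped, with differences of -0.52 (SE 0.30) and -0.41 (SE 0.27).

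The markers of the cell types of the testis were present, and their summed levels overlapped between genotypes in every list. Those of Sertoli cells (14 of 14 listed) were at 708 to 978 CPM in fl/Y and 673 to 1099 CPM in cKO/Y, those of Leydig cells (10 of 10) at 530 to 666 and 490 to 848 CPM, and those of peritubular myoid cells (9 of 9) at 236 to 322 and 251 to 424 CPM. Spermatogonial markers (11 of 11) summed to 94.4 to 109 and 87.3 to 132 CPM, those of spermatocytes (15 of 15) to 5156 to 5933 and 5099 to 6119 CPM, of round spermatids (12 of 12) to 1343 to 1606 and 1328 to 1647 CPM, and of elongating spermatids to 11823 to 16541 and 11282 to 18255 CPM. Markers of macrophages and immune cells (10 of 10) summed to 94.7 to 117 and 95.1 to 114 CPM, endothelial markers (8 of 8) to 41.4 to 52.8 and 37.7 to 62.0 CPM, and red blood cell markers (4 of 8) to 20.7 to 30.3 and 19.1 to 25.1 CPM. Of 10 epididymal markers 1 was listed, at up to 2.83 CPM. 0 of the 107 markers tested passed the genotype test in limma. At an unadjusted p under 0.05, 4 were higher and 4 lower. In each direction this is a larger share than the 1.22% and 1.37% of all genes. The higher ones were 2 markers of peritubular myoid cells, 1 of endothelium and 1 of spermatogonia, and the lower ones were 2 of Leydig cells, 1 of Sertoli cells and 1 of spermatogonia. Their part in the values above was not tested.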

How the data were processed

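Total testis RNA was sequenced as paired-end reads of 35 bases. The submitters' processing notes name HISAT2 2.1.0, featureCounts and edgeR on GRCm38, whereas by the methods of the study TopHat aligned the reads and HTSeq counted them. Reads were not aligned again here. The deposited signal values are CPM made by the authors with scaled library sizes, as inferred from the values since the scaling is not stated, and all 7 columns held whole multiples of 1 read (100% of values within 0.001 of a read). For cKO/Y 4 the value of 1 read lies near a power of 10 and was checked by its decimals. The recovered reads gave the depth and the alternative tests, and edgeR's quasi-likelihood test on them called 1 gene of the table between genotypes.

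Genes above 1 CPM in at least 3 libraries (19400) were fitted with limma 3.58.1 (R 4.3.3) on log2(CPM + 0.5) with a variance trend and batch as covariate, two-sided, with Benjamini-Hochberg adjustment over all of them and a threshold of 0.05. A fold change on this scale understates that of low genes. Intervals are 95% intervals. Alternatives used edgeR 4.0.16 and DESeq2 1.42.0 on recovered reads, other pseudocounts, filters and scalings, no batch term, a replicate block, single batches and each library left out. The code was tested on simulated data. Exon lengths, shared 35-base words and codons came from GENCODE M21 (GRCm38).

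Of the 53 genes, values in every library were given for the 3 with the highest mean CPM in each family, for those at an unadjusted p under 0.05 or without overlap between genotypes and for the 8 with the smallest batch p, as well as for the 2 genes with the smallest p of each pathway list. Txn2 and Gstcd, and the ranges of Txn1, Txnrd2, Gpx7 and Cat, fall outside this rule and were added after their values were seen. The genes and lists were chosen with earlier results of these data known.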

Additional observations from a re-analysis of the deposited data

Results flagged for a closer look

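A library was noted where, among the 4 cKO/Y libraries, its gap to the nearest other library exceeded Dixon's critical value. This held for 6 of 53 genes (11.3%), against 5.51% of all 19400 tested genes and about 1 in 20 by chance. cKO/Y 1 was the highest for Gsta2, at 7.13 CPM with the next library at 4.09, and for Gstt2, at 50.9 CPM with the next at 33.7. cKO/Y 2 was the highest for Gstm5, at 1398 CPM with the next at 1001, and for Prdx4, at 133 CPM with the next at 79.1, and it was the lowest for Prdx2, at 18.3 CPM with the next at 25.4. cKO/Y 4 was the lowest for Gstm7, at 26.4 CPM with the next at 32.4. cKO/Y 2 is also 1 of the 2 libraries at one end of the first principal component, beside fl/Y 1, whose part in these values was not tested.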

How the results depend on the processing

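With 3 and 4 libraries only large differences can pass the test, and at 2822168 to 8633399 reads genes under about 1 CPM rest on a few reads. Of 22 alternatives, 21 were planned, and 1, leaving out the 2 libraries at one end of the first principal component (fl/Y 1 and cKO/Y 2), was chosen after seeing the data. In each of them 0 of the genes described and 0 of the other pathway genes passed the genotype test. Batch 1 alone holds a single fl/Y library, assumed to vary like the 2 cKO/Y libraries, so its test says little. The median difference of the genes described ran from -0.047 to 0.027 with 1 library left out. Txnip stayed higher and Gsta3 lower in all 22, at 0.31 to 0.53 and -0.52 to -0.22. Both were singled out for genotypes that did not overlap, and these settings reuse the same libraries. Their signs were thus largely fixed in advance, and the agreement is no support for a difference. The Rlim call was lost with no batch term (-1.48, adjusted p = 0.921), in batch 2 alone (-1.29, adjusted p = 0.872) and with no variance trend (-1.38, adjusted p = 0.815), and with 1 library left out the difference ran from -1.52 to -1.28. The count of genes past the batch test was 5 with CPM over the plain total (Gpx4, Gstm1, Gstm2, Gsto2 and Sod2) and 0 with no variance trend. It was 2 with the edgeR likelihood ratio test and 2 with DESeq2 (Gpx4 and Gstm1 in both). Without fl/Y 1 and cKO/Y 2 it was 0, and with 1 library left out it was 0 to 7. The share of all genes past the batch test was not counted in these settings, so whether these counts exceed it is not known. Over all genes the genotype count was 28 in batch 1 alone, with that single fl/Y library, 10 with the edgeR likelihood ratio test, 0 in batch 2 alone, without a batch term or with no variance trend, and 0 to 3 with 1 library left out. The cause was not tested for any of these.

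Samples of the 2 genotypes share replicate numbers 1 to 3 in the labels. Correlations of the deviations of same-numbered samples were 0.101, 0.066 and 0.392, and fl/Y 1 correlated best with cKO/Y 2 (0.474), so the numbers were not taken as pairs. With the replicate block in place of the batch, 0 genes of the families passed, the median difference was -0.013, and Rlim was at -1.35 (adjusted p = 0.307), so that 0 genes of the table passed.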
